A study of Mus musculus with 10 samples.

Results

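The genes described here run the G1 phase of the cell cycle. They are the D-type cyclins Ccnd1, Ccnd2 and Ccnd3, the E-type cyclin Ccne1, the kinases Cdk4 and Cdk6, the Cip/Kip inhibitors Cdkn1a, Cdkn1b and Cdkn1c, and the INK4 inhibitor Cdkn2c. They were chosen by name, as 10 of the 35006 row names of the count tables, and all 10 had reads in every library. The count tables came from epithelial cells of mouse small-intestinal crypts, sorted into 5 populations with a fluorescent reporter called OSCAR. The question put to them was whether the G1 genes tell quiescent, exited and cycling populations apart.

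All mice were C57BL6/J animals that carried the EF1a-OSCAR reporter, and all cells were live and EpCAM+, EpCAM being a surface protein of epithelial cells. The reporter sits at the Rosa26 locus behind the EF1a promoter, and a germ-line Vasa-Cre had removed its stop cassette, so all tissues of these mice can express it, with no restriction to a crypt cell type. Its OSCAR value is a ratio of 2 fluorescent signals that falls as phosphorylation of RNA polymerase II rises, and its EF1a value reports the activity of the promoter. By label, P1 was OSCAR low and EF1a low, P2 OSCAR high and EF1a low, P3 OSCAR low and EF1a high, P4 OSCAR medium and EF1a low, and P5 OSCAR medium and EF1a high. Each population had 2 biological replicates of 10000 sorted cells, which gave 10 libraries, and the labels gave no age for the mice.

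Progress through G1 is set by a balance. D-type cyclins carry mitogen signals to Cdk4 and Cdk6, which begin to phosphorylate the retinoblastoma proteins. Cyclin E with Cdk2 completes that step, E2F factors are released, and the genes of DNA replication are switched on. INK4 inhibitors bind Cdk4 and Cdk6 alone, whereas Cip/Kip inhibitors bind whole cyclin and kinase complexes. In the crypt, stem and progenitor cells at the base divide rapidly, and most differentiated cells, such as enterocytes and Paneth cells, have left the cycle.

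The libraries held 3857612 to 6485823 counts on genes, and 12694 to 17091 genes were detected in each. Levels are given in CPM, counts scaled to the library size after TMM normalization, replicate 1 before replicate 2, and are relative within a library. In bulk RNA, fewer cells of a type and less RNA per cell cannot be told apart. Differences were tested with edgeR over 13706 genes, and a gene was called where its adjusted p lay below 0.01. Mitochondrial genes took 59.2% and 36.1% of the counts of the P3 libraries and 1.04% to 5.19% in the other 8. The 9 markers of Paneth cells, the antimicrobial cells of the crypt base, summed to 579799 and 422931 CPM in the libraries labelled P2, against 512 to 66001 CPM in the other 8. Goblet, tuft and enteroendocrine markers were also most abundant there. The study's description of the gates and the deposited labels differ on which of P2 and P3 held these secretory cells. The libraries are therefore named by their labels, and no direction is drawn from the reporter level of those 2 populations. Immune markers summed to 1092 and 753 CPM in P1 and to 24.1 to 240.0 CPM elsewhere, while stromal markers were at or below 53.8 CPM in every library. Stem cell markers summed to 603 to 3111 CPM over P1, P2 and P3 and 4415 to 7369.8 CPM over P4 and P5. Single stem cell markers did not all follow these sums. Of the 10, 5 were called higher in P2 than in P1 and 0 lower (29.1% of all genes were called). Between P2 and P4, Sox9 was called higher in P2 and Ascl2 lower (14.3% of all genes). Lgr5 held 80.5 and 81.2 CPM in P2, 94.6 and 115 in P4, and 10.5 and 9.70 in P1. Enterocyte markers summed to 49381 and 40933 CPM in P1 and 2671 to 31338 CPM elsewhere. Of the 12, 3 were called higher in P1 than in P4 and 0 lower (23.4% of all genes were called).

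Across the 5 populations, 6 of the 10 genes differed in level, namely Ccnd1, Ccnd2, Cdk4, Cdkn1a, Cdkn1c and Cdkn2c, where 36.3% of all tested genes did. Over the 10 possible pairs of populations, Cdkn1a was called in 6, Cdkn1c and Cdkn2c in 5 each, Ccnd1 and Ccnd2 in 4 each, Cdk4 in 3 and Cdk6 in 1. Ccnd3, Ccne1 and Cdkn1b were called in 0 pairs. Of all genes, 0% were called in P3 against P5 and in P5 against P4. The share was 14.3% in P2 against P4, 15.6% in P3 against P1 and 21.0% in P3 against P2. It was 23.4% in P1 against P4 and 29.1% in P2 against P1. Shares for the remaining pairs are not given here. The calls over the 5 populations held for Cdkn1a, Cdkn1c and Cdkn2c whichever library was left out. Those of the other 3 were lost in some cases, for Ccnd1 without P1 replicate 1 or either P2 library (adjusted p up to 0.0174), for Ccnd2 without any 1 library of P1 or P4 (up to 0.0190), and for Cdk4 without either P1 library, P2 replicate 2 or P4 replicate 2 (up to 0.0253).

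**Figure D1:**
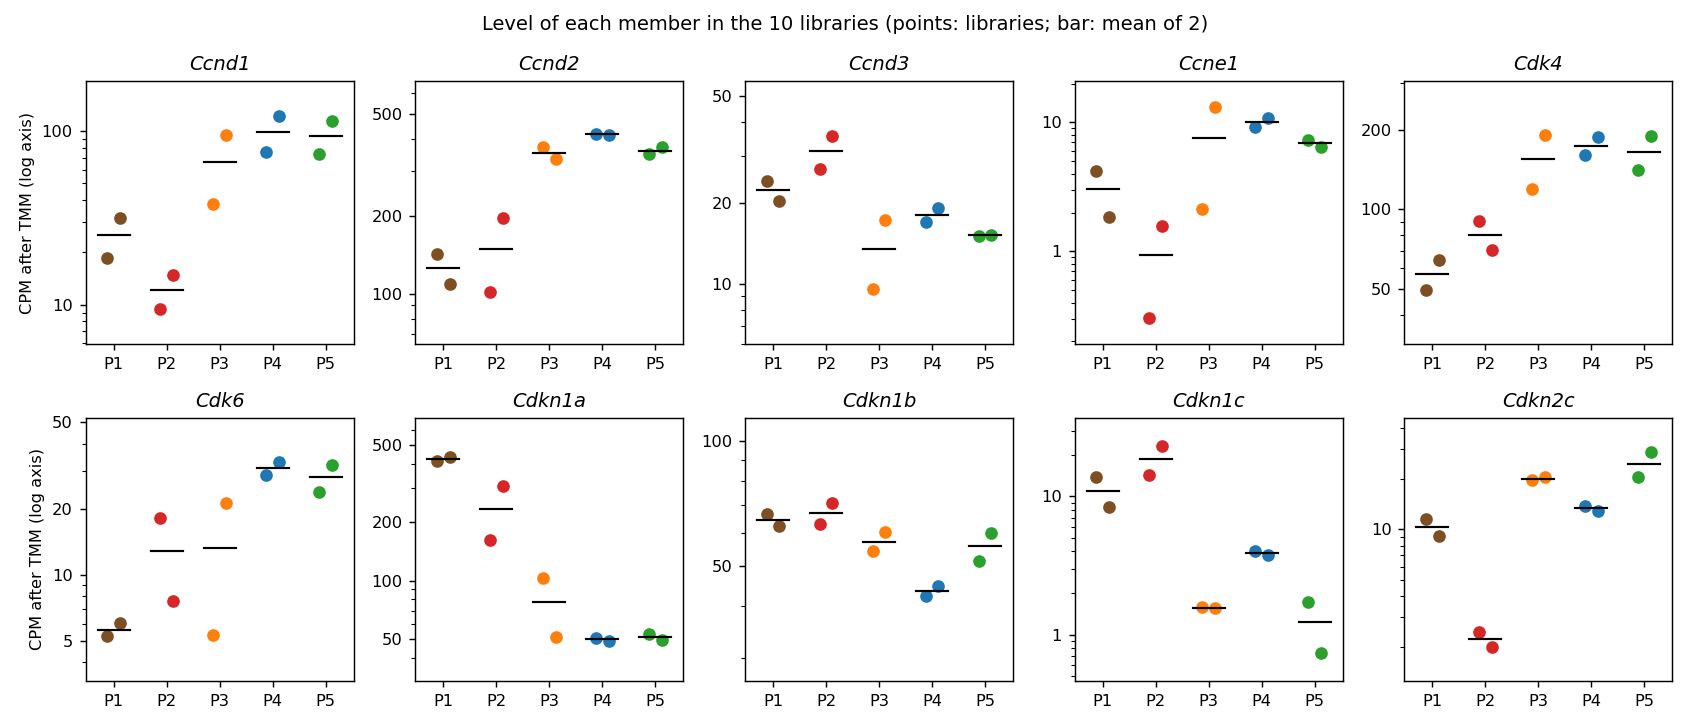
Level of each gene in CPM after TMM scaling, on a log axis with its own range in each panel. Points are the 10 libraries, 2 for each population from P1 to P5, and bars are the means of 2. Cdkn1a lies at 415 and 432 CPM in P1 and at 48.6 to 53.2 CPM in P4 and P5, Cdkn2c lies at 2.44 and 2.01 CPM in P2, and Cdkn1b spans only 42.3 to 70.9 CPM over all libraries.

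Ccnd1 encodes cyclin D1, the D cyclin most closely tied to growth factor and Wnt signals. It lies at chr7:152115836-152125774 on the minus strand (NCBIM37), and 818 bases of its exons overlap Oraov1 on the other strand, so reads there could not be assigned to either gene without strand. In CPM the pairs of values were 18.6 and 31.4 for P1, 9.45 and 14.7 for P2, 38.2 and 95.3 for P3, 76.4 and 122 for P4, and 73.7 and 114 for P5. P2 held the lowest values, P1 came next, and P4 and P5 overlapped each other and the higher P3 library. Against P4, Ccnd1 was lower in P2 by 3.02 on the log2 scale (a log2 fold change of -3.02, SE 0.50, adjusted p = 0.00283) and lower in P1 (log2 fold change -1.98, SE 0.47, adjusted p = 0.00896). The call for P2 was lost without either P2 library or P4 replicate 2, with an adjusted p of up to 0.0265. The call for P1 was lost when any 1 library outside P3 was left out, with an adjusted p of up to 0.0705. Between P2 and P1 the log2 fold change was -1.04 (95% interval -2.15 to 0.08), which did not pass the test.

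Ccnd2, the gene of cyclin D2, lies at chr6:127075797-127101066 on the minus strand and overlaps no other exon. The P1 libraries held 143 and 109 CPM, those of P2 102 and 197, P3 373 and 333, P4 418 and 413, and P5 347 and 371. P1 and P2 overlapped and lay below all 6 libraries of the other populations. Against P4 the log2 fold change was -1.72 in P1 (SE 0.32, adjusted p = 0.00328) and -1.47 in P2 (SE 0.32, adjusted p = 0.00845). The call in P1 was lost without any 1 library of P1 or P4, with an adjusted p of up to 0.0265. The call in P2 held without P2 replicate 2 or either P3 library and was lost without any other library, with an adjusted p of up to 0.0443. P3 exceeded P1 by a log2 fold change of 1.49 (SE 0.32, adjusted p = 0.00788), a call that held only when a P2 library was left out and otherwise rose to an adjusted p of up to 0.0557.

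Ccnd3, the gene of cyclin D3, was ranked differently over the populations. It lies at chr17:47642000-47736632 on the plus strand, and 353 bases of its exons overlap Bysl on the other strand. In CPM the pairs of values were 24.2 and 20.4 for P1, 26.8 and 35.5 for P2, 9.56 and 17.3 for P3, 17.0 and 19.1 for P4, and 15.1 and 15.3 for P5. The libraries labelled P2 were the highest and those of P3 to P5 the lowest, but no pair of populations passed the test, and P2 against P4 gave a log2 fold change of 0.79 (SE 0.30, adjusted p = 0.0782).

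Set per kilobase of exon, so that the 3 genes can be compared, cyclin D2 was the main D cyclin transcript in every population, at 57.1% ± 6.4 (SD, n = 2) of the D cyclin total in P1 and 73.2% ± 12.7 in P3. Ccnd3 supplied 25.6% ± 1.1 of the total in P1 and 33.0% ± 5.6 in P2, but 6.88% ± 2.20 in P3, 7.50% ± 0.06 in P4 and 7.19% ± 0.76 in P5. Ccnd1 supplied 7.37% ± 0.40 in P2 and 25.7% ± 5.1 in P5. The D cyclin total was 32.2 to 54.2 CPM per kb in P1 and P2 and 79.6 to 112.7 CPM per kb in P3, P4 and P5, with no overlap. The exon lengths include the bases that overlap a gene on the other strand, 818 for Ccnd1 and 353 for Ccnd3. Their levels per kilobase are therefore understated, and the share of Ccnd2 is overstated. The totals and shares are descriptions over 2 libraries a population, and Ccnd3 alone did not pass the test in any pair.

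**Figure D2:**
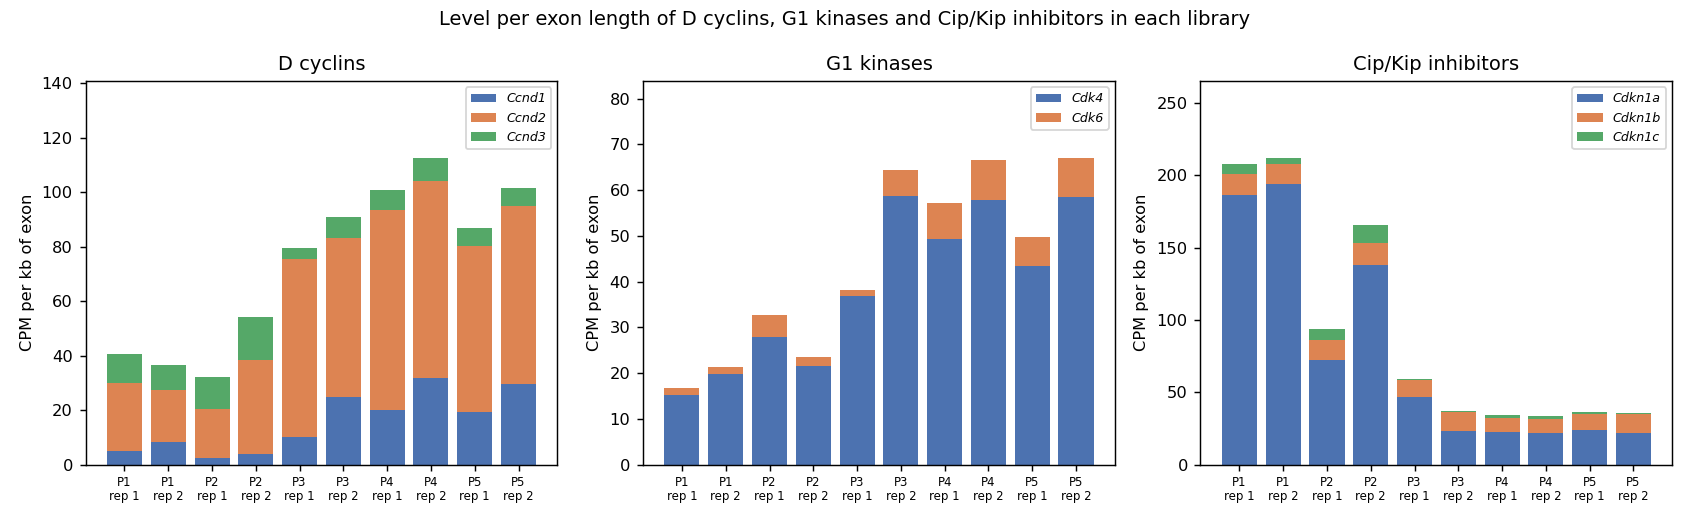
Stacked bars of the level per exon length (CPM per kb, linear axis from 0) of the D cyclins, the G1 kinases and the Cip/Kip inhibitors in each of the 10 libraries. Lengths count all exon bases, also those that overlap a gene on the other strand. D cyclin bars reach 32.2 to 54.2 CPM per kb in P1 and P2 and 79.6 to 112.7 in the other libraries, and Cip/Kip bars, mostly Cdkn1a, reach 93.8 to 212 in P1 and P2 and 33.6 to 59.3 in the others.

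Ccne1 encodes cyclin E1, the partner of Cdk2 at entry into S phase. It lies at chr7:38883003-38892553 on the minus strand and overlaps no other exon. The P1 libraries held 4.24 and 1.84 CPM, those of P2 0.305 and 1.56, P3 2.12 and 13.1, P4 9.21 and 10.8, and P5 7.33 and 6.46. The P2 values rest on 1 and 7 counts, for which exact Poisson intervals run from 0.0253 to 5.57 and from 2.81 to 14.4 counts and cover counting error only. Both P2 libraries lay below all others, and the P3 replicates stood far apart. Against P4 the log2 fold change was -3.30 in P2 (SE 0.89, adjusted p = 0.0219) and -1.72 in P1 (SE 0.75, adjusted p = 0.0914), so neither was called.

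Cdk4, the more abundant of the kinases that partner D cyclins, lies at chr10:126500590-126504976 on the plus strand, where 604 bases of its exons overlap Tspan31 on the other strand. In CPM the pairs of values were 49.6 and 64.4 for P1, 90.5 and 70.0 for P2, 119 and 191 for P3, 160.4 and 188 for P4, and 141 and 190.0 for P5. P1 was lowest, P2 lay between, and P3, P4 and P5 overlapped one another. Against P4 the log2 fold change was -1.61 in P1 (SE 0.29, adjusted p = 0.00294) and -1.12 in P2 (SE 0.29, adjusted p = 0.0184), and only the first was called. Between P2 and P1 it was 0.49 (95% interval -0.16 to 1.14) and did not pass the test. P3 exceeded P1 (log2 fold change 1.45, SE 0.29, adjusted p = 0.00615). Leaving out any 1 library of P1 or P4 ended the call between P1 and P4 (adjusted p up to 0.0277), and these or P3 replicate 2 ended that between P3 and P1 (adjusted p up to 0.0514).

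Cdk6, the second D cyclin kinase, lies at chr5:3343893-3523218 on the plus strand, with 60 bases of exon under Gm17590 on the other strand. The P1 libraries held 5.25 and 6.02 CPM, those of P2 18.3 and 7.58, P3 5.31 and 21.3, P4 28.7 and 32.8, and P5 24.1 and 32.1. P4 and P5 were highest, and P1 lay below every library but P3 replicate 1, whose value rests on 10 counts. P1 was lower than P4 (log2 fold change -2.45, SE 0.57, adjusted p = 0.00871), and this was the only pair of populations in which Cdk6 was called. The call was lost without any 1 library of P1, P4 or P5, with an adjusted p of up to 0.0581. Per kilobase of exon, Cdk4 made up 86.7% ± 0.2 of the Cdk4 and Cdk6 total in P4, 87.1% ± 0.1 in P5 and 92.0% ± 0.6 in P1. The lengths include the overlapped bases, 604 for Cdk4 and 60 for Cdk6, so the Cdk4 share is understated.

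Over the 10 libraries, the gene whose pattern was most like that of Cdk6 was Myc, the growth factor-responsive E-box factor. Likeness was measured as the root mean square difference of centred log2 CPM, which was 0.21 against a spread of 1.09 for Cdk6 itself. Myc had 10.2 and 14.9 CPM for P1, 34.4 and 21.9 for P2, 15.4 and 58.2 for P3, 59.3 and 79.4 for P4, and 58.7 and 73.1 for P5. As with Cdk6, P1 was lowest, P4 and P5 were highest and the P3 replicates stood apart, and P1 was lower than P4 (log2 fold change -2.47, SE 0.52, adjusted p = 0.00552). Myc was not among the 3 genes most like Cdk4, which were Mrps5, Nop58 and Gm6368. Myc is known to bind the E-box CACGTG and Cdk4 is known as one of its targets, so the promoters of the kinases are shown as a description. Of the 10 genes, 7 had RefSeq promoter windows (GRCm38.p6, 250 bases before to 50 after a start, 10 windows in all). CACGTG, which reads the same on both strands, occurred in 3 of these windows, those of Cdk4 and Cdk6 and 1 of Cdkn2c. It occurred in 7.15% of all 32851 RefSeq windows. Cdk4 held 4 copies, a number that 0.0244% of all windows reached or passed, and Cdk6 and Cdkn2c held 1 each. The 250 bases before each start are printed on the plus strand, from chr10:127063285-127063534 and chr5:3343643-3343892, with CACGTG in capitals.
Cdk4: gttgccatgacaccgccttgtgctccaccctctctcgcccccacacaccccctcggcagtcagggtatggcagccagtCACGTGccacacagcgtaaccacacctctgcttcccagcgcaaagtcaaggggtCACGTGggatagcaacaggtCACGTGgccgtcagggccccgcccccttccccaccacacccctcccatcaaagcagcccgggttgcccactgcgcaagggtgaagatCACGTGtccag
Cdk6: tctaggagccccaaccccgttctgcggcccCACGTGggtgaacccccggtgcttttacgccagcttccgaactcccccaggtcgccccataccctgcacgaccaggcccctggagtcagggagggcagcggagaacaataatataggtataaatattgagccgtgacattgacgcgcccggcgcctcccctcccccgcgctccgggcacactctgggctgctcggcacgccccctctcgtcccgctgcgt
The copies begin 172, 118, 98 and 11 bases before the Cdk4 start and 220 bases before the Cdk6 start. A match of letters is a description of the window and was not tested as a site. An effect of Myc on either kinase gene was not tested.

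Cdkn1a encodes p21, the Cip/Kip inhibitor induced by p53 and by differentiation. It lies at chr17:29227924-29237667 on the plus strand and overlaps no other exon. The P1 libraries held 415 and 432 CPM, those of P2 161 and 307, P3 104 and 51.3, P4 50.7 and 48.6, and P5 53.2 and 49.1. P1 lay above all other libraries, P2 above those of P3, P4 and P5, and P4 and P5 overlapped. Cdkn1a exceeded its P4 level 8.52-fold in P1 (log2 fold change 3.09, SE 0.39, adjusted p = 0.00102) and 4.71-fold in P2 (log2 fold change 2.24, SE 0.38, adjusted p = 0.00302). P3 was below P1 (log2 fold change -2.46, SE 0.38, adjusted p = 0.00249). The call in P1 was lost only without a P4 library (adjusted p up to 0.0155), that in P2 without a P4 library or P2 replicate 2 (up to 0.0323), and that of P3 against P1 without a P1 library (up to 0.0142). Between P2 and P1 the log2 fold change of -0.85 (95% interval -1.67 to -0.04) was not called (adjusted p = 0.0797).

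Cdkn1b encodes p27, an inhibitor controlled largely through the stability of its protein. It lies at chr6:134870419-134875531 on the plus strand. In CPM the pairs of values were 66.6 and 62.4 for P1, 63.1 and 70.9 for P2, 54.2 and 60.2 for P3, 42.3 and 44.6 for P4, and 51.3 and 59.9 for P5. P4 was lowest and the rest lay close together, the narrowest range of the 10 genes. The log2 fold change against P4 was 0.57 in P1 (SE 0.18, adjusted p = 0.0289) and 0.63 in P2 (SE 0.18, adjusted p = 0.0275), and neither was called.

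Cdkn1c encodes p57, an imprinted Cip/Kip inhibitor known from quiescent stem cells of several tissues. It lies at chr7:150644255-150646955 on the minus strand. The P1 libraries held 13.7 and 8.36 CPM, those of P2 14.3 and 23.2, P3 1.59 and 1.55, P4 4.05 and 3.77, and P5 1.72 and 0.741. The libraries labelled P2 were highest, P1 came next, and P3 and P5, with 3 to 15 counts a library, were lowest. P2 exceeded P4 (log2 fold change 2.26, SE 0.47, adjusted p = 0.00758) and P3 was below P1 (log2 fold change -2.80, SE 0.57, adjusted p = 0.00659). The first call was lost without any 1 library of P1, P2 or P4 (adjusted p up to 0.0734). The second was lost without any 1 library of P1, P3 or P4 or without P2 replicate 2 (adjusted p up to 0.0389). P1 against P4 gave a log2 fold change of 1.49 (SE 0.47, adjusted p = 0.0299) and was not called.

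Per kilobase of exon, Cdkn1a was the main Cip/Kip transcript throughout, at 90.5% ± 1.4 (SD, n = 2) of the family total in P1, 80.3% ± 4.3 in P2 and 65.9% ± 1.2 in P4. Cdkn1c made up 7.58% ± 0.46 in P2, 5.97% ± 0.23 in P4 and 1.77% ± 0.98 in P5. The family total was 208 and 212 CPM per kb for P1, 93.8 and 166 for P2, and 59.3 and 37.1 for P3, and it lay between 33.6 and 36.1 for P4 and P5.

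Cdkn2c encodes p18, the INK4 inhibitor, and lies at chr4:109333481-109339794 on the minus strand. Its order of populations differed from that of the Cip/Kip genes. In CPM the pairs of values were 11.5 and 9.20 for P1, 2.44 and 2.01 for P2, 19.6 and 20.4 for P3, 13.9 and 12.8 for P4, and 20.4 and 28.9 for P5. The libraries labelled P2 lay far below all others, with 8 and 9 counts (exact Poisson intervals 3.45 to 15.8 and 4.12 to 17.1 counts). P1 lay between them and P4, and P3 and P5, which overlapped, were highest. P2 was lower than P1 (log2 fold change -2.22, SE 0.35, adjusted p = 0.00115) and lower than P4 (log2 fold change -2.59, SE 0.34, adjusted p = 0.00114), and P1 against P4 gave -0.36 (95% interval -1.01 to 0.28), which did not pass the test. Leaving out P2 replicate 2 ended both calls, at adjusted p = 0.0117 and 0.0129, and leaving out any other single library ended neither.

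Ordered by level, each gene gives 4 neighbouring pairs of populations, 40 in all. The pairs were picked by level in these same libraries, so they are close by construction and their count is a description. Of the 40, 2 differed past the test. They were Cdkn1a, where P2 exceeded P3 (log2 fold change 1.61, SE 0.37, adjusted p = 0.00924), and Cdkn2c, where P1 exceeded P2. The call of Cdkn1a held without P2 replicate 1 or P3 replicate 1 and was lost without any other library, with an adjusted p of up to 0.0679 without P2 replicate 2. Of all genes, 21.0% were called between P3 and P2. In the other pairs, the neighbours did not differ past the test.

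P1 and P4 share low EF1a and differ in OSCAR, low against medium. Of the 10 genes, 5 were called between them, against 23.4% of all genes. Cdkn1a rose in P1, and Ccnd1, Ccnd2, Cdk4 and Cdk6 fell, so the called cyclins and kinases and the called inhibitor ran in opposite directions. Of the genes not called, Ccne1 (-1.72), Cdkn1b (0.57) and Cdkn1c (1.49) ran the same way. Ccnd3 (0.30) and Cdkn2c (-0.36) ran the other way. With 1 library left out, the share of all genes called ran from 0%, without either P4 library, to 30.5%, so every call between P1 and P4 was lost without a P4 library. The median log2 fold change of the 10 was -0.99, beside -0.06 over all genes. With mitochondrial genes left out of the scaling, the median of all genes moved to -0.26 and the direction of no called gene changed. Immune markers were 6 of 9 higher in P1, with Cd3e and Cd3g at 0 in both P4 libraries, and Paneth markers 9 of 9 higher (20142 and 66001 CPM against 512 and 888). Their part in the G1 result was not tested.

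P2 and P4 also share low EF1a, at high and medium OSCAR by label. Here 5 genes were called, where 14.3% of all genes were, a share that ran from 2.21% without P4 replicate 2 to 19.1% with 1 library left out. Cdkn1a and Cdkn1c were higher in P2, and Ccnd1, Ccnd2 and Cdkn2c were lower. The median was -1.19, beside 0.05 over all genes. All 9 Paneth markers, 7 of 9 goblet, 5 of 9 tuft and 5 of 12 enteroendocrine markers were higher in P2. P2 differed from P4 in both reporter gate and these markers, which cannot be told apart here.

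Between P2 and P1, both low in EF1a and at opposite ends of OSCAR by label, 1 of the 10 genes was called against 29.1% of all genes. It was Cdkn2c. The 95% intervals of Ccnd2 (-0.45 to 0.95), Ccnd3 (-0.19 to 1.16) and Cdkn1b (-0.34 to 0.46) were the narrowest among the cyclins and Cip/Kip genes, whereas that of Ccne1 (-3.69 to 0.51) was wide. Against the average of the other 4 populations, P2 had 4 genes called (27.0% of all genes), with Cdkn1c (log2 fold change 2.63) and Cdkn1a (1.30) higher and Cdkn2c (-2.86) and Ccnd1 (-2.37) lower. The call of Cdkn1a was lost without P2 replicate 2 (adjusted p = 0.108) or P4 replicate 2. Cdkn1c lost its call without P2 replicate 2, at 0.0108, and Ccnd1 without either P2 library, at up to 0.0348.

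**Figure D3:**
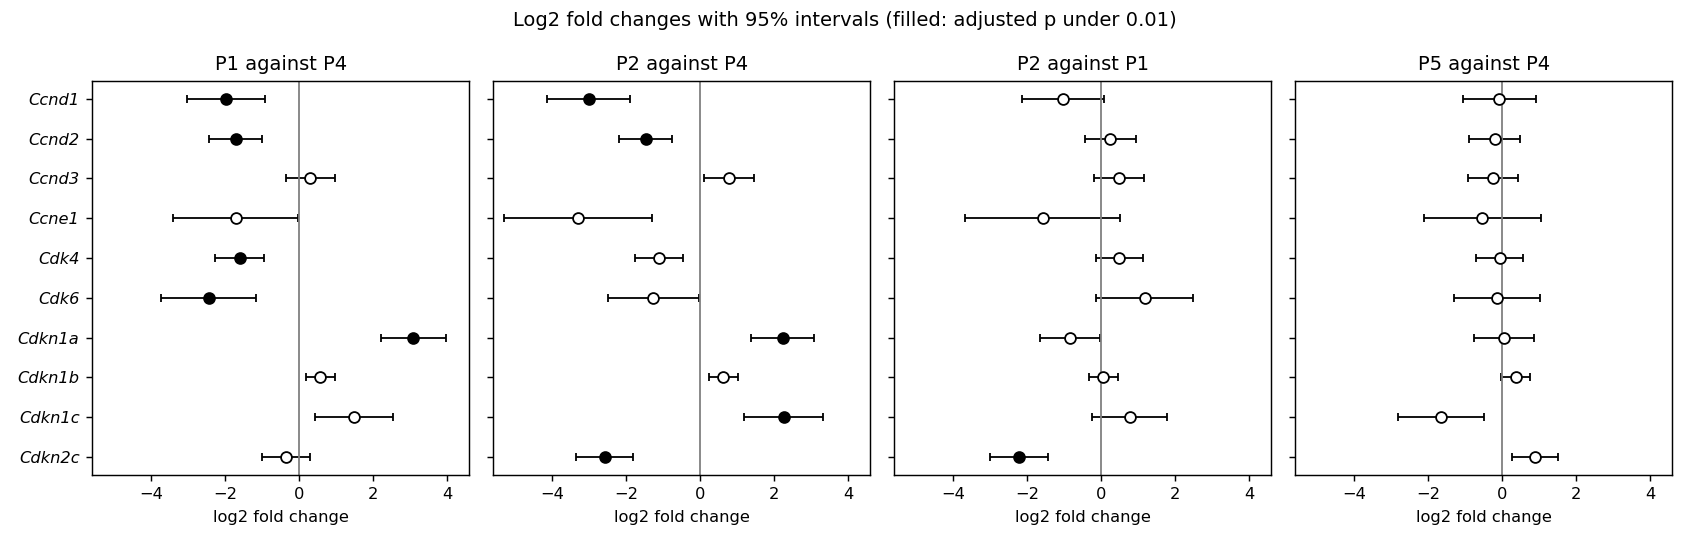
Log2 fold change of each gene with its 95% interval, derived from the F statistic of the edgeR model. Panels show P1 against P4, P2 against P4, P2 against P1 and P5 against P4. Filled points passed an adjusted p of 0.01 over all genes. Filled points number 5, 5, 1 and 0 in the 4 panels, Cdkn1a is the largest rise in P1 at 3.09, and Cdkn2c alone is filled in P2 against P1, at -2.22.

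P5 and P4 share medium OSCAR and differ in EF1a. With edgeR, 0 of the 10 genes and 0% of all genes were called, and DESeq2 also called 0 of the 10. At an unadjusted p under 0.05, 2 of the 10 genes and 2.55% of all genes passed. Cdkn1c was lower in P5 with a log2 fold change of -1.66 (SE 0.51, adjusted p = 1) and Cdkn2c higher with 0.89 (SE 0.28, adjusted p = 1). For Cdk4 the interval ran from -0.71 to 0.56, for Ccnd2 from -0.91 to 0.49 and for Cdkn1a from -0.78 to 0.86, and differences inside these bounds are not excluded by these data.

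P3 and P5 share high EF1a by label. Again 0 of the 10 genes and 0% of all genes were called, by DESeq2 also 0 of the 10, and 0 of the 10 reached an unadjusted p under 0.05 in edgeR (11.6% of all genes). The largest difference was Cdk6 with -0.99 (95% interval -2.22 to 0.24). Both P3 libraries carried the raised mitochondrial share, and the P3 replicates differed by 2.49-fold in Ccnd1, 6.17-fold in Ccne1 and 4.02-fold in Cdk6.

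P3 and P1 share low OSCAR and differ in EF1a by label only, since the gates of P3 are in doubt. Of the 10 genes 4 were called, with 15.6% of all genes. Ccnd2 and Cdk4 were higher in P3 and Cdkn1a and Cdkn1c lower, and all 4 fell short of the threshold when only these 2 populations were fitted, at adjusted p from 0.0169 to 0.0416, a fit that called 0 of all 11797 genes it tested. Without P1 replicate 1 also, 0% of all genes were called. The difference between P3 minus P1 and P5 minus P4, by label the EF1a contrast at low and at medium OSCAR, was tested as an interaction. It called 0 of the 10 genes and 0.810% of all genes with edgeR. With DESeq2, without a filter on low counts, it called 2 of the 10 and 5.55% of 34800 rows, rows without reads included. At an unadjusted p under 0.05 it reached 4 of the 10 and 34.0% of all genes. The smallest adjusted p-values were those of Cdkn1a (log2 difference -2.51, SE 0.52, adjusted p = 0.0163), Ccnd2 (1.70, SE 0.44, adjusted p = 0.0308) and Cdk4 (1.52, SE 0.40, adjusted p = 0.0326), while Ccne1 had a larger difference with a wider error (1.96, SE 1.04, adjusted p = 0.219).

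The genes on either side of the G1 switch were followed as a list of 26 partners, of which 24 could be tested. In P1 against P4, Rbl2 (log2 fold change 1.63, adjusted p = 0.00115) and Rb1 (1.29, adjusted p = 0.00752), the pocket proteins that hold E2F in check, were 2 of 3 called higher (14.0% of all genes were higher), the third being the phosphatase gene Cdc25a, and E2f6 and Tfdp1 were the 2 called lower (9.44% of all genes). Rbl2 had 110.5 and 111 CPM for P1, 75.6 and 59.3 for P2, 40.9 and 40.6 for P3, 30.8 and 40.8 for P4, and 38.8 and 47.2 for P5. P1 lay above all other libraries. In P2 against P4, 0 of 24 partners were higher and 5 lower (6.31% of all genes were lower), namely Cdkn3, E2f7, E2f8, Skp2 and Tfdp1. E2f7 and E2f8 are repressors of the E2F family that are E2F targets themselves. Cdc25a, E2f7 and Skp2 fall outside the rule for named genes and were named after their values were seen. Cdkn2a, the INK4 locus of senescence, was at 0 in both libraries of P1, P2, P4 and P5.

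Of 20 replication genes that E2F controls, 17 were lower in P2 than in P4 (6.31% of all genes were lower) and 0 higher, with a median log2 fold change of -3.08, beside 0.05 over all genes. In P1 against P4, 10 were lower (9.44% of all genes), with a median of -1.88. Mcm3 and Mcm4, subunits of the replicative helicase, fell in P1 by 2.40 and 2.49 on the log2 scale.

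P1 and P2 differed in the genes of mitosis. Of 14 such genes, 11 were lower in P2 than in P1 (15.2% of all genes were lower), among them Ccnb1 (log2 fold change -4.14) and Cdc20 (-3.39), and 1, Plk1, was higher. Against P4, the median log2 fold change of the 14 was -3.30 in P2 and -0.73 in P1, beside 0.05 and -0.06 over all genes. There, 12 were called lower in P2 (6.31% of all genes were lower) and 1 of 14 in P1 (9.44% of all genes). That 1 was Mki67, a marker of cycling cells, with a log2 fold change of -1.53 (SE 0.36, adjusted p = 0.00880), and in P2 it reached -3.32 against P4 (SE 0.39, adjusted p = 0.000692). The summed CPM of the 14 was 407 and 408 for P1, 319 and 236 for P2, 1097 and 1760.1 for P3, 772 and 824 for P4, and 1624 and 2564 for P5. Plk1 alone supplied 229 and 161 CPM of the P2 sums, against 19.8 and 18.6 CPM in P1, so the sums understate how low the other genes were in P2. No mitotic gene was called between P5 and P4, although the median of the 14 was 1.61, beside 0.01 over all genes.

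**Figure D4:**
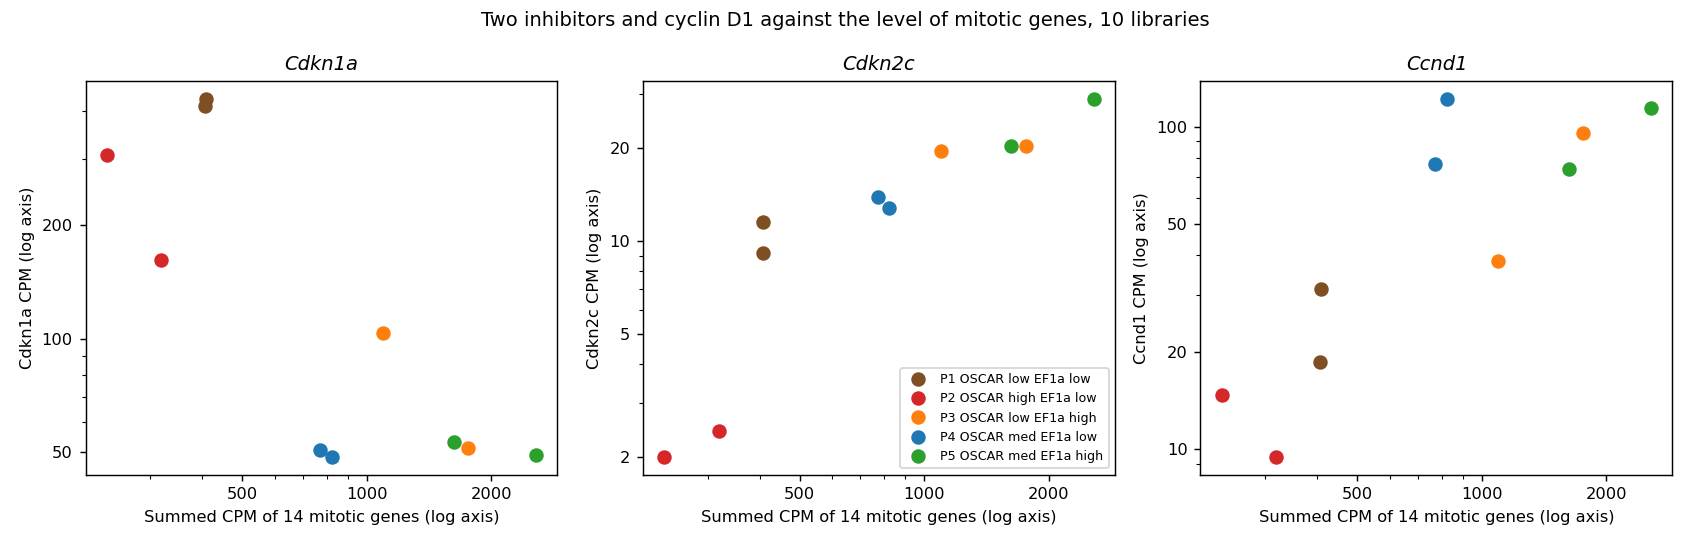
Level of Cdkn1a, Cdkn2c and Ccnd1 (CPM, log axis) against the summed level of 14 mitotic genes (CPM, log axis) in the 10 libraries, coloured by population. P1, at 407 and 408 CPM of mitotic genes, has the highest Cdkn1a, and P2, at 319 and 236, has the lowest Cdkn2c and Ccnd1. Plk1 alone makes up 229 and 161 CPM of the P2 sums. P5 has the highest mitotic level, at 1624 and 2564, with Cdkn1a at 53.2 and 49.1 CPM.

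Cdkn1a is a p53 target, and a list of 17 others was followed beside it. In P1 against P4, 7 were higher (14.0% of all genes were higher) and 1 lower, with a median log2 fold change of 1.26, beside -0.06 over all genes. Pmaip1, a pro-apoptotic gene, rose by 2.89 and Sesn1 by 1.73, while Aen fell by 1.88 on the log2 scale. In P2 against P4, 6 were higher and 1 lower (14.3% of all genes were called in either direction), led by Trp53inp1 at 4.28. Sesn1 was lower in P2 than in P1 (log2 fold change -2.99, adjusted p = 0.000334), so the 17 genes did not move as a block. Trp53 itself was lower than in P4 in both P1 (log2 fold change -1.44, SE 0.33, adjusted p = 0.00780) and P2 (-1.80, SE 0.34, adjusted p = 0.00462). Immediate early genes, which respond to growth signals and to cell handling, were 4 of 14 higher and 0 lower in each of P1 and P2 against P4. Of all genes, 14.0% were higher in P1, and 14.3% were called in either direction in P2. For the immediate early genes, counts and medians differed in what they showed. Their median log2 fold change was -0.08 in P1, beside -0.06 over all genes, and 1.38 in P2, beside 0.05. Klf4, an inducer of Cdkn1a known from the differentiating epithelium, was among them at 3.78 in P1 and 2.72 in P2. Btg2, at 2.23 in P2 against P4, is in this list and also among the 17 p53 targets. The part of handling in the Cdkn1a result was not tested.

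The genes most like each member over the 10 libraries, by the same root mean square difference of centred log2 CPM, were drawn from all tested genes. For Ccnd1 they were Cdc6 (0.29), Mcm6 (0.30) and Mfge8 (0.30), and the first pair are among the genes of replication licensing. Ccne1 was most like Nkain1 (0.45), Rpa3 (0.45) and Cdt1 (0.47). For Cdk4 they were Mrps5 (0.13), Nop58 (0.14) and Gm6368 (0.16), a set that includes a mitochondrial ribosomal protein and a nucleolar protein. Cdkn1a was most like Litaf (0.20), Apobec1 (0.23) and Ccdc68 (0.26). Cdkn2c was most like Haus4 (0.22), a subunit of the spindle augmin complex, followed by 2610039C10Rik (0.23) and Nrarp (0.26). Ccnd2 was most like Zdhhc2 (0.18), Ccnd3 like Fam135a (0.14), Cdkn1b like Tcea1-ps1 (0.08) and Cdkn1c like Pion (0.57), the loosest match of the 10. The libraries share depth, sorting and replicate, and these values are descriptions without a test.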

How the data were processed

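Poly-A RNA was sequenced on a NextSeq 500 by the authors, who mapped reads to mm9 with TopHat2 2.1.0 and counted them on exons with HTSeq 0.11.2, without strand. The deposited values are raw read counts per gene. Reads with several alignments were not counted, so counts of near-identical copies are uncertain. A row with no gene name held at most 0.000596% of counts and was left out, as were 206 ribosomal RNA genes, as in the study's methods. Mitochondrial shares were computed before that removal. Names were matched to GENCODE M1 on NCBIM37, the assembly of mm9, where 33643 of 35006 were found.

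Genes passing filterByExpr (13706) were scaled with TMM and fitted with 5 population means over all 10 libraries in edgeR 4.0.16 (R 4.3.3). Contrasts used the quasi-likelihood test, Benjamini-Hochberg adjusted over all genes. Intervals are 95%. With 2 libraries against 2, an exact test of one gene cannot go below 0.333. A share of 3 counts was 4.63e-05% to 7.78e-05% of a library, which covers counting error alone. The fits were tested on simulated counts with known changes.

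The genes and lists were chosen with earlier results of these data known, and the lists were written from general knowledge. The text gives all 10 genes, up to 2 genes a direction for each list and the 3 genes closest to each member. Markers of 8 cell types were used as lists. The result of 1 gene in the replication list is not reported here. Alternatives covered DESeq2 1.42.0, its size factors, the filter, ribosomal and mitochondrial genes, the replicate block, the populations fitted, the threshold, each library left out and, chosen after seeing the data, both P3 libraries left out. Fold change columns were not among the files used. Plots used matplotlib 3.10.9.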

Additional observations from a re-analysis of the deposited data

How the results depend on the processing

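Counts of called genes among the 10 moved by over 1.5 times under these settings. The share of all genes called follows each count in parentheses, except for the counts of neighbouring pairs, which have none. Without the filter on low counts, 3 were called in P2 against P1 (5508 of 21996 genes), 8 in P2 against P4 (15.9%), 7 in P2 against the average (23.5%), 4 in the interaction (10.4%, from 0.810%) and 9 of the 40 neighbouring pairs. DESeq2 called 7 in P2 against the average (4556 of 34800 rows, 13.1%) and 2 in the interaction (1933 rows, 5.55%). It was fitted without a filter, so its rows include genes without reads. These shares cannot be set beside those of edgeR, which called 3706 of 13706 genes in P2 against the average. With the 2 populations alone, 0 were called in P2 against P1 (29.8%) and 0 in P3 against P1 (0%). At an adjusted p under 0.05, 8 were called in P2 against P4 (29.1%), 7 in P2 against the average (41.6%), 3 in the interaction (17.3%) and 6 neighbouring pairs.

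With the replicate number as a block, 2 were called in P2 against P1 (33.0% of all genes, from 29.1%) and 4 neighbouring pairs. All genes called went from 3214 to 3881 between P1 and P4 and from 111 to 593 in the interaction. Deviations of same-numbered libraries correlated above 0.1 in 9 of 10 pairs of populations and at -0.06 between P2 and P3 (highest 0.55, median 0.25). No label ties a number to an animal or day, so pairing was not established and the block was not used in the values reported.

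Leaving out each library in turn gave 3 to 9 called over the 5 populations (18.4% to 44.2% of all genes), 0 to 1 in P2 against P1 (10.9% to 34.9%), 1 to 7 in P2 against P4 (2.21% to 19.1%), 0 to 5 in P1 against P4 (0% to 30.5%), 0 to 4 in P3 against P1 (0% to 14.6%), 2 to 6 in P2 against the average (11.8% to 30.8%), 0 to 0 in P5 against P4 (0%), in P3 against P5 (at most 0.00691%) and in the interaction (0%), and 1 to 2 neighbouring pairs. No gene was called between P1 and P4 without either P4 library, or between P3 and P1 without P1 replicate 1. A population left with 1 library is assumed to vary like the others.

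No called log2 fold change turned its sign in any of these settings. Among those not called, Cdkn1b in P3 against P5 turned to -0.0072 with DESeq2 size factors in edgeR, -0.065 without the filter, -0.0042 with DESeq2, -0.051 without mitochondrial genes and -0.019 with the 2 populations alone. Cdkn1a in P5 against P4 turned to -0.00079 without mitochondrial genes. Leaving out 1 library turned others not called. Between P3 and P5 the ranges were -0.13 to 0.045 for Ccnd2, -0.67 to 0.17 for Ccnd3, -1.70 to 0.90 for Ccne1, -0.48 to 0.18 for Cdk4, -0.017 to 1.01 for Cdkn1a, -0.086 to 0.14 for Cdkn1b and -0.14 to 1.04 for Cdkn1c. Between P5 and P4 they were -0.43 to 0.31 for Ccnd1, -0.30 to 0.13 for Cdk4, -0.35 to 0.068 for Cdk6 and -0.0062 to 0.10 for Cdkn1a. Elsewhere they were -0.30 to 0.66 for Ccnd2 in P2 against P1, -0.48 to 2.13 for Ccne1 in P3 against P1, -1.11 to 0.16 for Cdk6 in P2 against the average, -0.060 to 1.93 for Cdk6 in P3 against P1, -0.021 to 0.15 for Cdkn1b in P2 against P1 and -0.18 to 0.33 for Cdkn2c in the interaction. The cause was not tested. Leaving out both P3 libraries called 1 of the G1 genes in P2 against P1 (37.8% of all genes) and 7 in P2 against P4 (20.8%). That fit called 5 in P1 against P4 (32.7%) and 0 in P5 against P4 (0%). With all libraries the shares of all genes were 29.1%, 14.3%, 23.4% and 0% in the same order.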

Other observations

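Plk1, a mitotic kinase, was the 1 gene of 14 that was higher in the libraries labelled P2 than in P4 (log2 fold change 2.32, SE 0.34, adjusted p = 0.00171) while 12 others were lower. It was named after its value was seen.

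Tfdp2, a partner of E2F factors, stood at 141 and 175 CPM in P1 and at 43.9 to 96.4 CPM in the other 8 libraries, and was lower in P2 than in P1 (log2 fold change -1.62, SE 0.24, adjusted p = 0.000841).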
